A study of Danio rerio with 32 samples.

Results

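The genes described here are 6 NADPH oxidase genes, duox, nox1, cybb, cyba, ncf1 and ncf4, of 22686 genes measured in whole zebrafish larvae exposed to retene. The set was chosen by the measured level of duox, which was clearly lower at 50 µM retene than in the control, and the other 5 genes were added as parts of the same enzyme family. The level of duox at 50 µM against the control is therefore what picked the set, and it is given below as a description without a test. All 6 genes were measured in all 32 pools, and none had 0 reads in any pool.

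NADPH oxidases are membrane enzymes that take electrons from NADPH inside the cell and pass them to oxygen on the other side of the membrane. Most make superoxide, whereas dual oxidase, the product of duox, releases hydrogen peroxide and also carries calcium-binding and peroxidase-like regions. In zebrafish larvae, duox in the epidermis makes the hydrogen peroxide gradient that draws leukocytes to a wound, and in vertebrates dual oxidases also supply the thyroid with hydrogen peroxide for hormone synthesis. The phagocyte oxidase is built from a different catalytic subunit, encoded by cybb, held in the membrane with the cyba product and switched on by cytosolic factors that include the ncf1 and ncf4 products.

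Retene is an alkylated polycyclic aromatic hydrocarbon, and the question asked was how the larval transcriptome responds across a concentration series. Tropical 5D zebrafish, dechorionated at 4 hours post-fertilization (hpf), were exposed in well plates from 6 hpf to the vehicle DMSO alone (the control) or to retene in that vehicle at 7 concentrations in steps of 2.5 times: 0.205 µM, 0.512 µM and 1.28 µM, then 3.2 µM and 8 µM, and at the top 20 µM and 50 µM. Morphologically normal larvae were collected at 48 hpf, and each of the 4 pools per group held 9 whole fish. The pools are whole larvae, so fewer cells of a type and less RNA per cell cannot be told apart, and nothing says that pools came from separate spawns, so p-values measure only the spread between these pools.

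Between 7720701 and 8656870 reads fell on genes in each pool. Levels are normalized counts, that is, reads divided by the size factor of the pool (0.94 to 1.077), and they are not corrected for transcript length, so levels are compared between groups for each gene but not between genes. Differences, written Log2FC, are on the deposited variance-stabilized scale, which is close to log2 for abundant genes and compresses the differences of genes with few reads. As a check of exposure, cyp1a, a cytochrome P450 that is a classic target of the aryl hydrocarbon receptor, averaged 19827 normalized counts at 50 µM, against 26.1 in the control. Control replicate 2, replicate 4 of 8 µM and replicates 2 and 4 of 50 µM stood apart from the other pools across all genes, and results that change without these 4 pools are named below. Each was among the farthest pools on the first or second principal component after group means were subtracted. So was replicate 2 of 3.2 µM, which was not set apart.

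The level of duox was lowest at the 2 highest retene concentrations. The 4 control pools had 365, 425, 416 and 376 normalized counts of duox. The pools at 0.205 µM had 369, 360, 388 and 308, and those at 0.512 µM had 334, 431, 385 and 326. Both of these groups overlapped the control. The pools at 1.28 µM had 322, 321, 259 and 299 normalized counts, those at 3.2 µM had 349, 390, 361 and 187, and those at 8 µM had 316, 268, 354 and 284. At 1.28 and 8 µM all 4 pools lay below all 4 control pools, as did 3.65% and 1.84% of all genes. At 3.2 µM the pools overlapped the control, and replicate 4 was the lowest of its group by a wide margin. That replicate had 3422 normalized counts of cyp1a, against 1277 to 1554 in the other pools at 3.2 µM, and the link to duox was not tested. The pools at 20 µM had 266, 273, 248 and 232 normalized counts of duox, and those at 50 µM had 175, 217, 227 and 169. In both groups all pools were below all control pools, which held for 3.6% of genes at 20 µM and 3.02% at 50 µM.

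**Figure D1:**
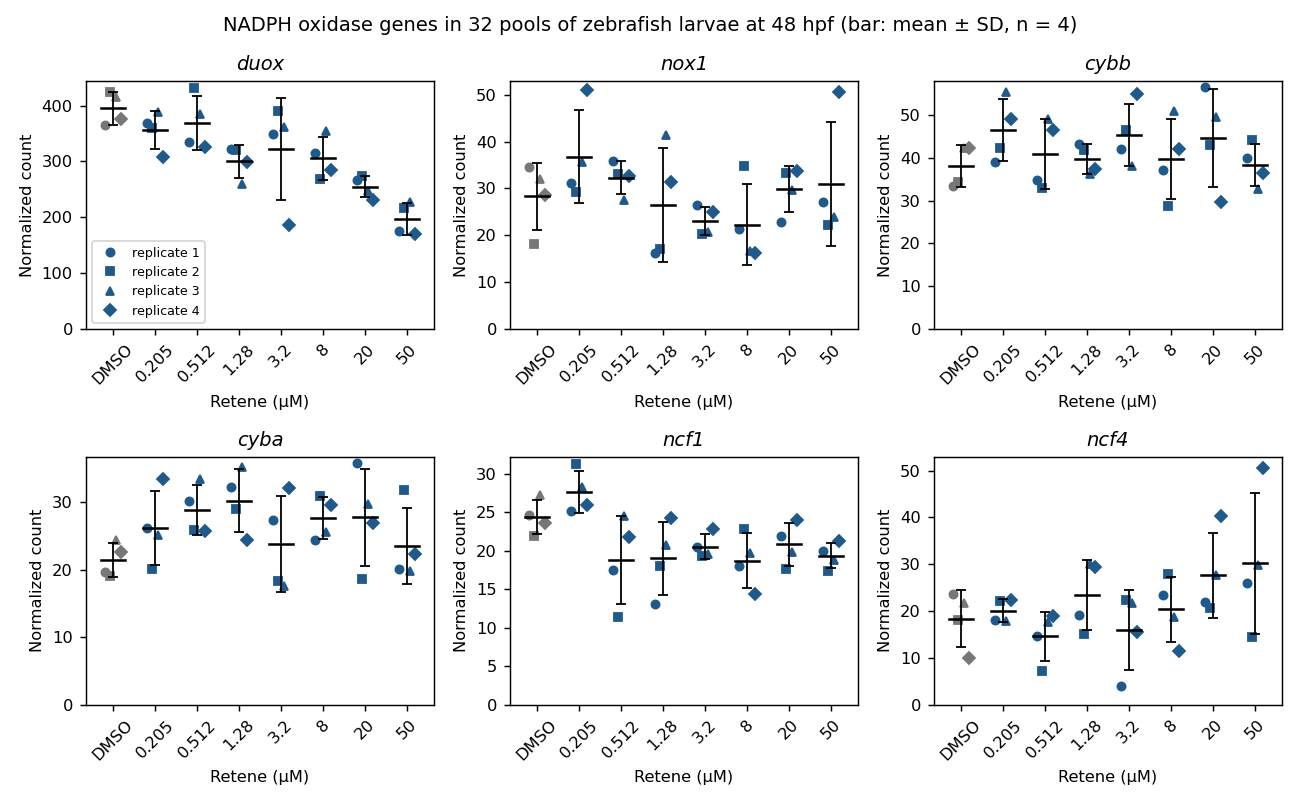
Normalized counts (linear axis starting at 0) of the 6 genes in each of the 32 pools against retene concentration, with DMSO at the left; symbols mark replicate number, and the horizontal bars are means with SD (n = 4). The duox pools at 50 µM sit between 169 and 227, below the control pools at 365 to 425, while the pools at 50 µM overlap the control pools for nox1, cybb, cyba and ncf4.

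The mean of duox was 395 ± 29.4 normalized counts in the control, 356 ± 34.0 at 0.205 µM and 369 ± 48.8 at 0.512 µM (SD, n = 4 each). The 3 groups in the middle of the series averaged 300.4 ± 29.5 at 1.28 µM, 322 ± 91.8 at 3.2 µM, and, for 8 µM, 305 ± 38.0. The top of the series averaged 255 ± 18.8 at 20 µM and 197 ± 29.2 at 50 µM. In the order of these means, the groups at 50 and 20 µM were the only neighbours whose pools did not overlap, and the other neighbouring groups could not be separated by their pools. The ratio of duox to the control was 0.901 at 0.205 µM and 0.934 at 0.512 µM, between 0.76 and 0.814 over the next 3 concentrations, 0.644 at 20 µM and 0.499 at 50 µM. All 7 of these ratios share the control pools that chose the set. The Log2FC of duox at 50 µM was -0.76 (SE 0.11), and 2.48% of all genes were called at this concentration by limma at a Benjamini-Hochberg adjusted p under 0.05. The median Log2FC over all genes at 50 µM was 0.003.

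The pools at 0.205 to 20 µM did not enter the rule that chose the set, and duox was tested in them. The set was, however, chosen with earlier results of these data known, so the test is not fully independent of the choice. Over these 24 pools the slope of duox was -0.07 on the Log2FC scale (SE 0.019) per step of the series, each step being 2.5 times the concentration before it. The limma adjusted p was 0.0586 over all genes (unadjusted p = 0.000868), which misses the threshold that 1.34% of genes passed. The correlation of duox with the step gave Pearson r = -0.57 (permutation p = 0.00373) and Spearman rho = -0.60 (permutation p = 0.00276) over 24 pools. The adjusted p depended on single pools: leaving out replicate 4 of 3.2 µM gave 0.0263, replicate 4 of 0.205 µM 0.0343, replicate 3 of 8 µM 0.038, replicate 2 of 3.2 µM 0.0394 and replicate 3 of 1.28 µM 0.0422. Leaving out any other of the 24 pools gave no call, with a limma adjusted p up to 0.135. A slope per µM in place of per step gave an adjusted p of 0.091. With the 20 µM pools left out, the slope was -0.05 and the adjusted p 0.573.

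Between the ends of this range, duox averaged 255 ± 18.8 normalized counts at 20 µM and 356 ± 34.0 at 0.205 µM, a ratio of 0.715. All 4 pools at 20 µM, at 232 to 273, were below all 4 pools at 0.205 µM, at 308 to 388, as were those of 3.57% of all genes. The exact two-sided permutation test gave p = 0.0286, the smallest p that 4 pools against 4 allow. The limma Log2FC was -0.37 (SE 0.11) with an adjusted p of 0.137 in the fit of all groups, which is not a call (0.582% of genes were called), and 0.00693 in the fit of these groups alone.

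Of the other 5 genes, limma called none at any concentration against the control. At 50 µM the count at an unadjusted p under 0.05 was 0 of 5, where 15.2% of all genes passed that level, and limma voom on the recovered reads also called 0. The share of all genes called was 0.586% at 20 µM, 0.344% at 8 µM, 0.0838% at both 3.2 and 1.28 µM, and 0.0% at both 0.512 and 0.205 µM. Over the lower 6 concentrations the smallest limma adjusted p of the 5 genes was 0.354, for cyba at 1.28 µM (limma unadjusted p = 0.0358), and voom called 0 at each. These genes had between 4 and 57 reads per pool, and a missed threshold does not show that their levels were equal.

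**Figure D2:**
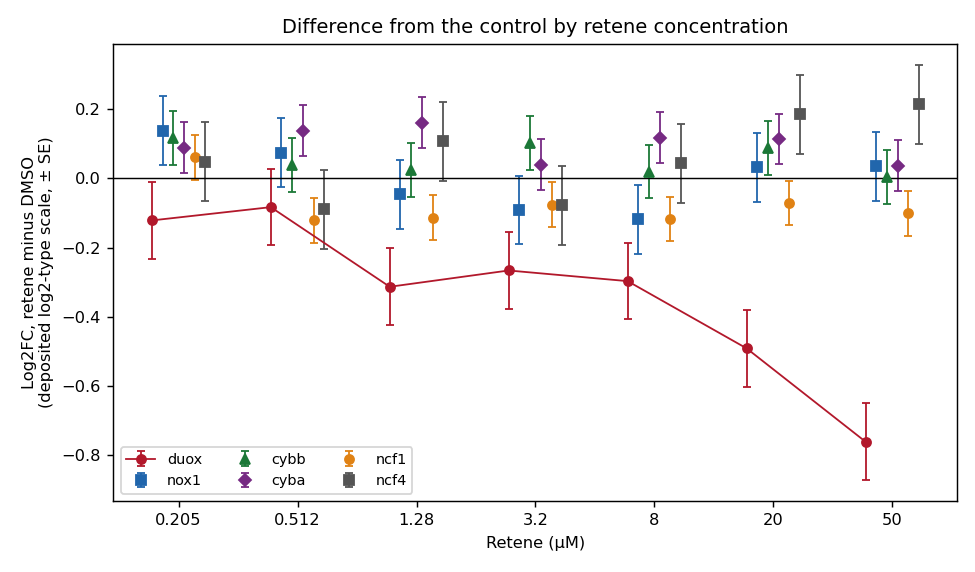
Log2FC against DMSO on the deposited log2-type scale (points, ± SE from the fit of all groups) at the 7 retene concentrations for the 6 genes; the line joins the duox points. The duox values lie at -0.12 and -0.08 at the lowest concentrations and at -0.49 and -0.76 at 20 and 50 µM, whereas the values of the other genes lie on both sides of 0. The scale compresses the differences of the other genes, which had few reads, more than those of duox.

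Among the catalytic subunits, nox1 encodes an oxidase known in mammals from colon epithelium. Its pools had 27.1, 22.2, 23.8 and 50.6 normalized counts at 50 µM, against 34.5, 18.1, 31.98 and 28.6 in the control. The groups overlapped, with replicate 4 of 50 µM above all others. The Log2FC was 0.03 (SE 0.10, limma adjusted p = 0.912), and it was -0.07 without replicate 4 of 50 µM, -0.03 without control replicate 2 and -0.11 without the 4 pools that stood apart. The group means of nox1 ran between 22.3 ± 8.68 at 8 µM and 36.8 ± 9.91 at 0.205 µM (SD, n = 4 each). The slope over 0.205 to 20 µM was -0.03 per step (SE 0.016, limma adjusted p = 0.433).

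The phagocyte catalytic subunit gene cybb had 40.1, 44.4, 32.8 and 36.5 normalized counts in the pools at 50 µM, against 33.5, 34.3, 42.3 and 42.4 in the control. The means, 38.4 ± 4.96 at 50 µM and 38.1 ± 4.90 in the control (SD, n = 4 each), lay closer together than the pools of either group (Log2FC 0.004, SE 0.08, limma adjusted p = 0.99). The sign of this difference turned with the pools used: the Log2FC was between -0.02 and 0.03 as each pool in turn was left out.

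For its membrane partner cyba, the pools at 50 µM had 20.0, 31.8, 19.8 and 22.3 normalized counts, against 19.7, 19.1, 24.5 and 22.7 in the control. The groups overlapped and the Log2FC was 0.04 (SE 0.07, limma adjusted p = 0.866), and -0.01 without replicate 2 of 50 µM. At 0.512 µM the pools had 30.1, 25.8, 33.4 and 25.8 normalized counts of cyba, at 1.28 µM 32.2, 29.0, 35.3 and 24.3, and at 8 µM 24.5, 30.9, 25.6 and 29.7. All 4 pools at 0.512 and at 8 µM lay above all 4 control pools, as did those of 1.67% and 2.83% of all genes. At 8 µM the margin was nearly none, with the lowest pool at 24.456 and the highest control pool at 24.451. The pools at 1.28 µM overlapped the control, and limma called none of these differences (adjusted p 0.354 to 0.759). The mean of cyba was above the control mean of 21.5 at all 7 concentrations, at ratios of 1.09 at 50 µM to 1.41 at 1.28 µM, with the same 4 control pools in each. The mean of cybb was likewise above its control mean at all 7, at ratios of 1.01 to 1.22. That of ncf1 was above its control at 0.205 µM (1.14) and below it from 0.512 µM up (0.769 to 0.855).

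Of the cytosolic factors, ncf1 (the p47-phox organizer) had 20.0, 17.4, 18.9 and 21.3 normalized counts at 50 µM, against 24.6, 21.9, 27.3 and 23.7 in the control. All 4 pools at 50 µM were below all 4 control pools, as were those of 3.02% of all genes. The means were 19.4 ± 1.67 at 50 µM and 24.4 ± 2.24 in the control (SD, n = 4 each), and limma made no call (Log2FC -0.10, SE 0.06, adjusted p = 0.482). The ncf1 pools at 20 µM, at 17.6 to 24.03, were likewise below those at 0.205 µM, at 25.1 to 31.2, as in 3.57% of all genes. The exact two-sided permutation p there was 0.0286, the smallest possible, and the limma adjusted p 0.544. This permutation result was the smallest among the 5 genes other than duox and was not adjusted for their number. The exact two-sided permutation test gave p = 0.171 for ncf4 and 0.343 for nox1. For cyba the exact two-sided permutation test gave p = 0.743, and for cybb 0.857. The ncf1 mean at 0.205 µM, 27.7, was the highest of all groups, the control included.

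The pools of ncf4 (the p40-phox factor) had 26.1, 14.5, 29.8 and 50.6 normalized counts at 50 µM, against 23.7, 18.1, 21.6 and 9.87 in the control. The groups overlapped, and the SD at 50 µM, 15.1 around a mean of 30.2, was wider than that of the control, 6.08 around 18.3. The Log2FC was 0.21 (SE 0.11, limma adjusted p = 0.383), between 0.11 and 0.31 as single pools were left out. Replicate 4 of 50 µM was the highest pool of the series for ncf4, and the same pool had the highest nox1 level at 50 µM. It is also among the pools that stood apart across all genes, and its part in these levels was not tested.

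Within groups, some of these genes moved together from pool to pool. After the group means were subtracted, all 15 pairs of the 6 genes were correlated over the 32 pools, with permutation p-values adjusted over the 15 pairs. ncf1 and ncf4 varied together (Pearson r = 0.54, permutation p = 0.00079, adjusted p = 0.00593; Spearman rho = 0.55, adjusted p = 0.0208), and r was 0.51 without the 2 pools farthest from the median of ncf1. duox and nox1 ran opposite to each other (r = -0.49, permutation p = 0.00029, adjusted p = 0.00435; rho = -0.55, adjusted p = 0.0208), and r was -0.62 without the 2 pools farthest from the median of duox. Without subtracting the group means, r was -0.18 for duox and nox1 and 0.30 for ncf1 and ncf4. The other 13 pairs did not pass, the nearest being ncf4 and nox1 (r = 0.47, permutation p = 0.0175, adjusted p = 0.0875).

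**Figure D3:**
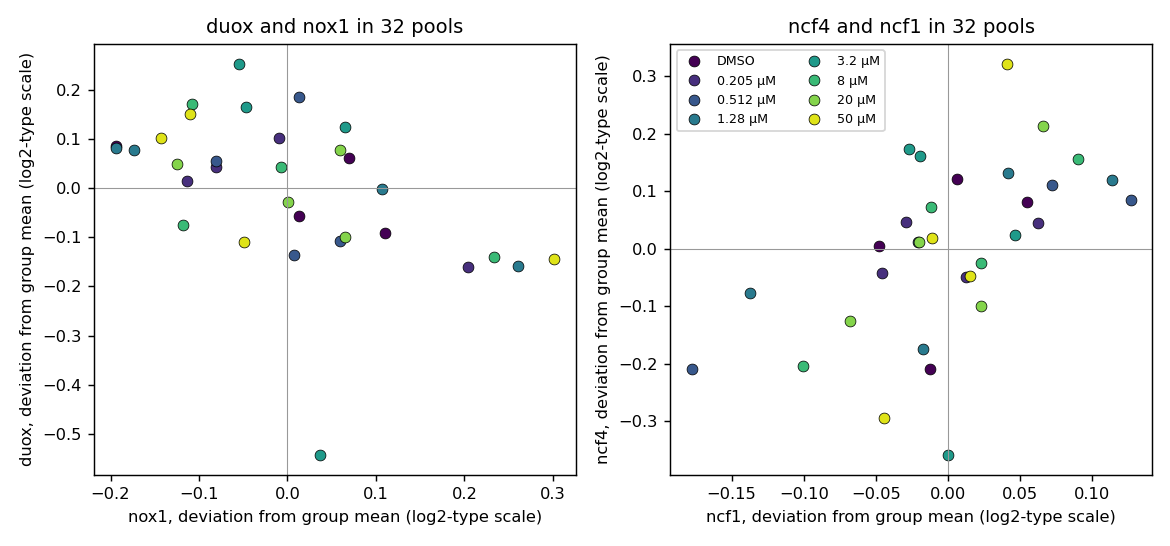
Deviation of each of the 32 pools from its group mean on the deposited log2-type scale: duox (y axis) against nox1 (x axis) at the left, ncf4 (y axis) against ncf1 (x axis) at the right, with colour giving the retene concentration. The left cloud slopes downwards (r = -0.49) and the right one upwards (r = 0.54); the lowest duox point is replicate 4 of 3.2 µM.

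These pool-to-pool differences followed the main components of all genes more closely for ncf4 and nox1 than for ncf1 and duox. The first principal component of the group-centred values held 22.6% of the variance. Its highest absolute correlation with any of these genes was 0.34, for nox1, and it was 0.14 for duox. The second principal component of the group-centred values held 15.1% of the variance and had replicate 4 of 50 µM as its farthest pool. Its absolute correlation was 0.72 with ncf4 and 0.62 with nox1, against 0.35 with ncf1 and 0.19 with duox. No batch is named in the labels, and the part of this component in the 2 correlations was not tested; without the 4 pools that stood apart, r was -0.49 for duox and nox1 and 0.50 for ncf1 and ncf4.

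By pattern over the 32 pools, without subtracting group means, the genes most like duox were snai2 (Pearson r = 0.81), cxcl12b (0.81), ndrg1b (0.81), ccnd1 (0.80) and kif11 (0.79). The most opposed were dnajc17 (-0.87), lonrf1 (-0.83), wu:fa25f02 (-0.83), cyb5a (-0.82) and cyp1c2 (-0.82). These values describe the 32 pools, which share the concentration series. Without the 4 pools that stood apart, 3 of the 5 most like and 2 of the 5 most opposed genes were shared. With the group means subtracted, the gene nearest to ncf4 was akt3a (r = 0.89), the nearest to nox1 was pcdh9 (0.81), and the nearest to duox, trnA (0.75), averaged only 5.01 normalized counts.

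The measured part of the wider oxidase machinery showed no calls. The genes noxa1 and cybc1 and the dual oxidase maturation factors duoxa and duoxa2 were not measured, so they were not tested. Of 19 further subunits, organizers and maturation factors listed, 15 were measured, and limma called 0 of 15 at each of the 7 concentrations, as did voom. Over all genes limma called 2.48% at 50 µM and 0.0% to 0.586% at the lower concentrations. At 50 µM 3 of 15 had an unadjusted p under 0.05, as did 15.2% of all genes. Without replicate 2 of 50 µM, 1 of 15 was called, and the share of all genes called without that pool is not given. rac2, the leukocyte Rac GTPase of the phagocyte oxidase, had the smallest adjusted p of the list at 50 µM, 206 normalized counts against 167 in the control (Log2FC 0.21, SE 0.07, limma adjusted p = 0.142). rac2 was named after its values were seen. The median Log2FC of these 15 genes was -0.02, beside 0.003 over all genes.

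Enzymes that remove hydrogen peroxide and superoxide gave 3 higher and 0 lower calls among 22 measured at 50 µM, and all 3 were peroxiredoxins, thiol enzymes that reduce peroxides. prdx1 averaged 564 ± 43.3 normalized counts at 50 µM and 315 ± 20.9 in the control (SD, n = 4 each; Log2FC 0.68, SE 0.09, limma adjusted p = 3.7e-06), and it was also called at 20 µM (Log2FC 0.41, limma adjusted p = 0.0146). prdx6 rose to 372 ± 18.2 at 50 µM, against 285 ± 27.7 in the control (adjusted p = 0.0033, and 0.0775 in the fit of these groups alone). The mitochondrial prdx3 averaged 424 ± 40.6 at 50 µM and 339 ± 24.5 in the control (adjusted p = 0.0228). The call of prdx3 was lost without control replicate 1 (adjusted p = 0.0943), control replicate 2 (0.085) or replicate 1 of 50 µM (0.134), and without the 4 pools that stood apart (0.0581). The median Log2FC of the 22 genes was 0.08, where 1.45% of all genes were called higher.

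Of 7 peroxidase genes measured, prostaglandin synthases among them, 2 were called lower at 50 µM, where 1.02% of all genes were called lower. mpx, the myeloperoxidase of neutrophil granules, fell to 132 ± 13.04 normalized counts at 50 µM, against 217 ± 51.0 in the control (SD, n = 4 each; Log2FC -0.47, SE 0.08, limma adjusted p = 0.000561). ptgs2a, a prostaglandin synthase, fell to 114 ± 6.98 at 50 µM, against 176 ± 15.2 in the control (Log2FC -0.39, SE 0.08, limma adjusted p = 0.00276), and it was also called lower in the trend over 0.205 to 20 µM (slope -0.05 per step, limma adjusted p = 0.0491). Both kept the call at 50 µM as each pool of the 2 groups was left out, with adjusted p up to 0.0153, but in the fit of these groups alone mpx had an adjusted p of 0.0869. tpo, the thyroid peroxidase, which works with the hydrogen peroxide of dual oxidase, was not called.

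Among 18 genes of thyroid hormone synthesis, 1 was called at 50 µM, where 2.48% of all genes were called. This was dio3b, a deiodinase that inactivates thyroid hormone. It averaged 113 ± 27.7 normalized counts at 50 µM and 166 ± 13.9 in the control (SD, n = 4 each; Log2FC -0.36, SE 0.09, limma adjusted p = 0.0198). Its call was lost without control replicate 1 (0.0612), 2 (0.0664) or 4 (0.0551), without replicate 1 (0.0732) or 4 (0.139) of 50 µM, and without the 4 pools that stood apart (0.144). The median Log2FC of the list was 0.01, near that of all genes.

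Of 19 genes around wound signals and the sensing of hydrogen peroxide, 2 were called higher and 1 lower at 50 µM, beside 1.45% and 1.02% of all genes. keap1a, the cytosolic sensor that holds back Nrf2, averaged 151 ± 5.49 normalized counts at 50 µM and 104 ± 7.76 in the control (SD, n = 4 each; Log2FC 0.33, SE 0.07, limma adjusted p = 0.00436), and the call stood as each pool was left out. nfe2l2a, which encodes Nrf2 itself, averaged 496 ± 33.1 at 50 µM and 392 ± 28.4 in the control (adjusted p = 0.018), but the call was lost without control replicate 4 (0.079), replicate 2 of 50 µM (0.0528) or the 4 pools that stood apart (0.0722). cxcl8a, a neutrophil chemoattractant, averaged 3.49 ± 4.33 at 50 µM and 10.9 ± 2.68 in the control (adjusted p = 0.0406). That call was lost without any of the 4 control pools (0.055 to 0.124) and without replicate 2 (0.106) or 4 (0.194) of 50 µM, and the adjusted p was 0.694 without the 4 pools that stood apart. The median Log2FC of the list was 0.07.

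**Figure D4:**
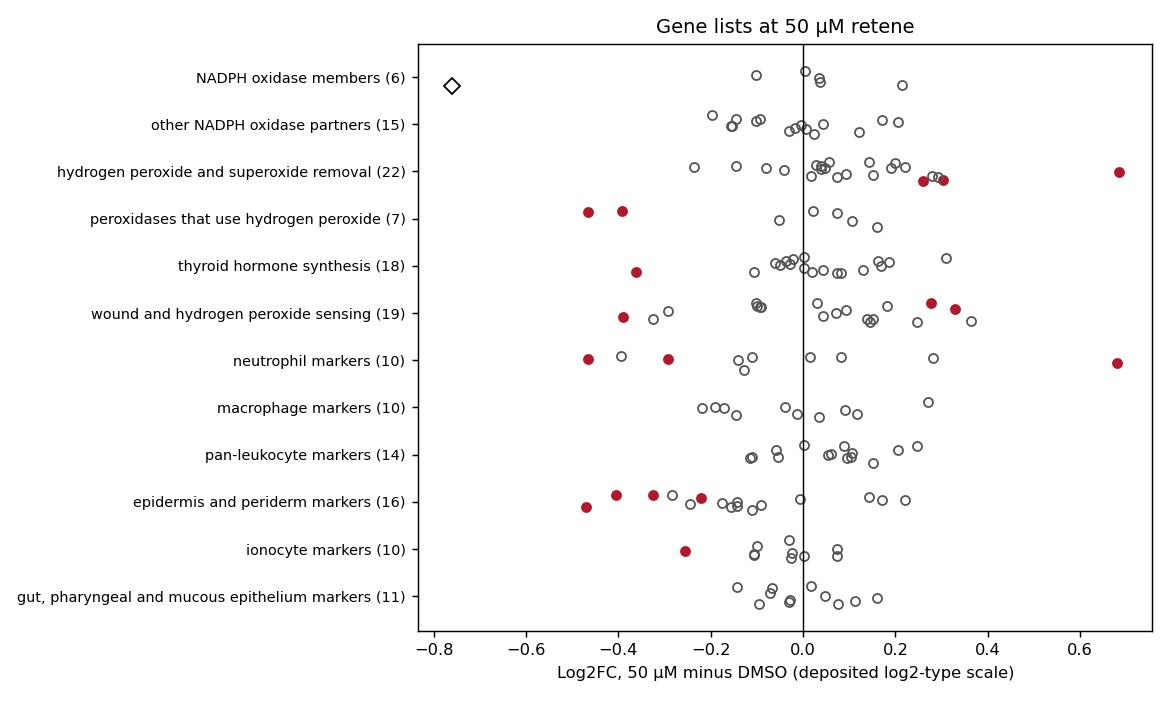
Log2FC at 50 µM against DMSO (x axis, deposited log2-type scale) for every measured gene of the 12 gene lists, with the number of genes in parentheses; filled points passed a limma adjusted p under 0.05, open points did not, the diamond is duox, which was not tested, and vertical scatter within a row has no meaning. The filled points include prdx1 at 0.68 and mmp13a at 0.68 on the right, and mpx at -0.47 and krt1-19e at -0.47 on the left.

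Markers of the cells that carry these oxidases were set beside the genes. Neutrophil markers summed to 911 to 1134 normalized counts at 50 µM and to 1081 to 1257 in the control, over 10 genes of which none was at 0 in any pool. At 50 µM 3 of the 10 were called, where 1.45% of all genes were called higher and 1.02% lower. mmp13a, a collagenase, was higher (Log2FC 0.68, limma adjusted p = 6.23e-05), mpx was lower as given above, and cebpa, a myeloid transcription factor, was lower (Log2FC -0.29, adjusted p = 0.0296). At a limma unadjusted p under 0.05 there were 5 of 10, of which 3 were lower, where 15.2% of all genes passed. The median Log2FC of the list was -0.12. mmp13a was also called higher at 8 and 20 µM, where 0.344% and 0.586% of all genes were called. The cebpa call was lost without control replicate 1 (0.13) or 4 (0.0557), or without replicate 1 (0.0838) or 3 (0.0924) of 50 µM. Macrophage markers summed to 296 to 323 at 50 µM and to 301 to 379 in the control, and 0 of 10 were called by limma (2 at an unadjusted p under 0.05). Pan-leukocyte markers summed to 910 to 1048 at 50 µM and to 829.8 to 1050 in the control, and 0 of 14 were called (2 at an unadjusted p under 0.05). For both lists the shares of all genes at 50 µM were 2.48% called and 15.2% at an unadjusted p under 0.05. Without replicate 2 of 50 µM, 1 macrophage marker and 1 pan-leukocyte marker were called, and the share of all genes called without it is not given. rac2 is in both the pan-leukocyte list and the list of other oxidase genes, so calls in those lists are not separate counts. The part of these markers in the levels of cybb, cyba, ncf1 and ncf4 was not tested.

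For the tissue where duox is known to act in larvae, the epidermis, 16 markers were measured and 4 were called lower at 50 µM, where 1.02% of all genes were. These were the keratins krt1-19e (Log2FC -0.47, limma adjusted p = 0.000664), krt91 (-0.40, adjusted p = 0.00317) and krt4 (-0.33, adjusted p = 0.00363, and 0.105 in the fit of these groups alone), and perp (-0.22, adjusted p = 0.0226), a gene of epithelial junctions. The perp call was lost without control replicate 2 (0.06) or 3 (0.0887), without replicate 1 (0.0799) or 4 (0.0902) of 50 µM, and without the 4 pools that stood apart (0.145). The median Log2FC of the 16 markers was -0.15, and 13 were below 0. At a limma unadjusted p under 0.05 there were 9 of 16, of which 7 were lower, where 15.2% of all genes passed. Their summed level was 122625 to 132628 normalized counts at 50 µM and 135598 to 162074 in the control, and krt4 alone made up 56.8% of it. At 20 µM the sum was 136415 to 150306 with a median of 143271, and at the lower concentrations its medians were 161093 to 168929. The pools at 20 µM overlapped those of the control and those at 0.205 µM, of which the lowest was at 149635.

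The part of these markers in the level of duox was not tested. The level of duox per 100000 epidermal marker counts averaged 155 ± 23.4 at 50 µM and 257 ± 39.8 in the control (SD, n = 4 each), a ratio of 0.601, where the ratio of duox itself was 0.499. This ratio was computed after the data were seen and rests on the same pools that chose the set. Per 100000 marker counts, duox averaged 178 ± 12.4 in the 20 µM group, whose pools ran from 165 to 190. The pools at 50 µM ran from 132 to 181 on this measure and overlapped those of 20 µM. The next lower groups averaged 185 ± 23.3 (8 µM), 194 ± 57.8 (3.2 µM) and 181 ± 17.8 (1.28 µM). Their pools overlapped those of 20 µM. The lowest concentrations averaged 225 ± 23.5 (0.512 µM) and 212 ± 4.93 (0.205 µM), with all pools above those of 20 µM. Among ionocyte markers, skin cells that carry ion transport, 1 of 10 was called at 50 µM (2.48% of all genes were), where the sum was 2006 to 2259 normalized counts, against 2125 to 2393 in the control. This was the carbonic anhydrase gene ca2 (Log2FC -0.26, limma adjusted p = 0.0173), and that call was lost without control replicate 2 (0.0996), replicate 4 of 50 µM (0.113) or the 4 pools that stood apart (0.263). Markers of gut, pharyngeal and mucous epithelium summed to 1180 to 1246 at 50 µM and to 1116 to 1274 in the control, with 0 of 11 calls by limma (1 at an unadjusted p under 0.05) and 0 by voom. Limma called 2.48% of all genes there, and 15.2% had an unadjusted p under 0.05.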

How the data were processed

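RNA of 32 pools was sequenced, and per the submitters' processing notes reads were aligned with STAR, counted per gene with HTSeq on GRCz11 and DESeq2 was used for normalization. The values the authors deposited lie on a variance-stabilized log2 scale. Inverting the transformation gave normalized counts and, with each pool's size factor, reads that were whole in 100.0% of values within 0.01 reads. Gene names came from RefSeq by gene ID (21030 of 22686 matched), and no coordinates are given because its assembly differs. limma 3.58.1 in R 4.3.3 was fitted to the deposited values of all 32 pools with 1 mean per group and a mean-variance trend, with Benjamini-Hochberg adjustment over all 22686 genes per comparison and a threshold of 0.05. The trend was fitted to 24 pools. Correlations used 100000 permutations. Named genes were the 6 members, at most 5 called genes per list and the 5 genes nearest in pattern. The members and lists were chosen with earlier results of these data known. The fits were tested on simulated data. Alternatives were limma voom, log2 of normalized counts plus 0.5 or 1, a minimum mean count of 10, no trend, fewer groups, quantile normalization, a replicate block, a threshold of 0.01, and pools left out.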

Additional observations from a re-analysis of the deposited data

How the results depend on the processing

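The duox difference at 50 µM was -1.01 on log2 of normalized counts plus 0.5 or plus 1 and -1.03 with limma voom, against -0.76 on the deposited scale, which compresses differences. As single pools were left out it was -0.81 to -0.71, the duox slope over 0.205 to 20 µM -0.078 to -0.064 and the difference between 20 and 0.205 µM -0.42 to -0.34. Replicate numbers did not pair the pools (same-numbered deviations correlated at 0.0011 on average, and 5 of 32 pools correlated best with their own number). With a replicate block the duox slope was -0.0698 with a limma adjusted p of 0.0309, cxcl8a at 50 µM was lost (adjusted p = 0.0503) and no other call changed. In the fit of only the groups compared, duox at 20 µM against 0.205 µM was called (-0.37), and at 50 µM the calls were 1 for peroxide removal, 1 for peroxidases, 0 for thyroid genes, 1 for wound genes, 1 for neutrophil, 2 for epidermis and 0 for ionocyte markers. Without the 4 pools that stood apart, and also at a threshold of 0.01, thyroid and ionocyte calls were 0 and wound calls 1. Directions turned for small, uncalled differences: cybb had a slope of 0.0005 per µM and -0.0159 at 50 µM with voom, and without the 4 pools the differences at 50 µM were -0.0474 for cyba, -0.0444 for cybb and -0.109 for nox1. As single pools were left out, slopes were -0.0077 to 0.0051 for cyba and -0.0115 to 0.004 for cybb. The differences between 20 and 0.205 µM were -0.0219 to 0.0826 for cyba and -0.0832 to 0.0422 for cybb, and those at 50 µM -0.0146 to 0.0597 for cyba, -0.0247 to 0.0325 for cybb and -0.0656 to 0.0824 for nox1. List calls at 50 µM were then 0 to 1 for other oxidase, macrophage, pan-leukocyte and ionocyte genes, 0 to 2 for thyroid genes and 1 to 3 for wound genes. The share of all genes called in each of these settings is not given. The list counts therefore do not show whether a change was particular to the lists. The causes were not tested. The genes other than duox had 4 to 57 reads per pool, and the deposited scale compresses their differences more than those of duox. With voom the differences at 50 µM were 0.60 for ncf4, -0.35 for ncf1, 0.08 for cyba and 0.05 for nox1, none of them called. On the deposited scale they were 0.21, -0.10, 0.04 and 0.03.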
